A study of Homo sapiens with 24 samples.

Results

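The genes described here are 38 genes of the integrated stress response and the unfolded protein response, measured by RNA-seq in SK-N-SH and SK-N-AS, 2 established human neuroblastoma cell lines, after knockdown of FAM167A (also called DIORA1). They were chosen by name and matched by Ensembl gene ID to 3 tables of raw read counts, which list 57356 genes in common, and all 38 were found in each table. They fall into an ATF4 amino acid arm of 17 genes, an ER chaperone arm of 16 genes, and 5 sensors and feedback genes that belong to neither arm. In the first experiment, SK-N-AS cells were under CRISPR interference (CRISPRi, in which a fusion protein with the KRAB repressor is guided to a promoter). They carried the guide sgDIORA1 (4 libraries) or the control guide sgGal4 (NTC, 4 libraries). SK-N-SH cells under CRISPRi carried the same kinds of guide (3 libraries each). In the third experiment, SK-N-SH cells received a siRNA pool against DIORA1 (5 libraries) or NTC siRNA (5 libraries). The series text names SpCas9-KRAB for both CRISPRi lines, so the sgGal4 controls are taken to carry it too. The labels do not say whether the CRISPRi cells were pools or clones, how many guides were used, how long after knockdown RNA was taken, or whether libraries of a group came from separate cultures. The p-values therefore measure the spread between these libraries, which may be partly technical.

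In the unfolded protein response, unfolded proteins in the endoplasmic reticulum (ER) activate the membrane sensors PERK (EIF2AK3), IRE1 (ERN1) and ATF6. IRE1 splices XBP1 mRNA, and spliced XBP1 and cleaved ATF6 drive genes of ER chaperones, folding enzymes and ER-associated degradation (ERAD), the route that returns misfolded proteins to the cytosol for destruction. PERK phosphorylates the translation factor eIF2, as other kinases do on amino acid shortage or haem shortage, and this integrated stress response favours translation of ATF4, which drives genes of amino acid synthesis and uptake. Much of this control acts on protein or on splicing, which gene counts of mRNA do not show.

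The 3 tables held 29985858 to 104455853 assigned reads per library in the SK-N-AS CRISPRi experiment, 11690515 to 21628076 in the SK-N-SH CRISPRi experiment and 71464698 to 90255175 in the siRNA experiment. FAM167A itself fell in all 3, by 3.22, 6.23 and 1.53 on the log2 scale (edgeR adjusted p = 2.9e-33, 1.82e-37 and 7.87e-14), so the depth of knockdown differed between methods and lines. Of the adrenergic neuroblastoma markers checked, 6 of 10 tested fell in SK-N-AS CRISPRi and 9 of 9 tested in SK-N-SH CRISPRi, while 2 of 9 rose with siRNA. Of the 10 mesenchymal markers, 7 rose and 2 fell in each CRISPRi experiment, while none rose and 6 fell with siRNA. Beside these counts, 15.2% of all genes tested rose and 15.5% fell in SK-N-AS CRISPRi. The shares were 27.7% and 28% in SK-N-SH CRISPRi, and 2.55% and 6.98% with siRNA. The summed level of the mesenchymal list was 2989 to 3074 CPM in knockdown and 2718 to 2774 CPM in control libraries of SK-N-AS CRISPRi, 11131 to 11796 and 6049 to 6936 CPM in SK-N-SH CRISPRi, and 2333 to 2634 and 2907 to 3128 CPM with siRNA. For the adrenergic list the sums were 1694 to 1775 and 2038 to 2134 CPM in SK-N-AS CRISPRi, 887 to 939.5 and 2494 to 2649.9 CPM in SK-N-SH CRISPRi, and 3888 to 4382 and 3728 to 4182 CPM with siRNA. No marker of either list was at 0 in a whole group, but TH stayed under 1 CPM in every group and NOTCH2 in SK-N-AS. In SK-N-SH CRISPRi FN1 and VIM averaged 5609 and 3969 CPM after knockdown and 2467 and 2768 CPM in controls. They weigh most in the mesenchymal sum there. The part of these marker shifts in the results below was not tested. Of the blood cell markers, PTPRC averaged 450.6 CPM in knockdown and 541.5 CPM in control libraries of SK-N-AS, where CD3E and HBB were at 0, and it was under 1 CPM in SK-N-SH. Among glial markers, FOXD3 was at 0 in every group. With siRNA, knockdown libraries 3 and 4 and control library 5 had ribosomal protein genes at -0.24, -0.24 and -0.23 from the other libraries of their group (median log2 distance over 73 genes), and knockdown libraries 1 and 5 at 0.22 and 0.23. The mitochondrial share of reads was 6.45% and 6.41% in siRNA knockdown libraries 3 and 4, against a range of 8.45% to 8.67% for knockdown libraries 1, 2 and 5 and of 7.83% to 9.07% for the siRNA controls. For SK-N-SH CRISPRi this share ranged over 5.72% to 6.56% after knockdown, against 4.66% to 5.49% for sgGal4, with no overlap. For SK-N-AS CRISPRi it ranged over 6.82% to 7.61% after knockdown, against 6.90% to 7.54% for sgGal4. The part of these shares in the results was not tested.

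Most called genes of the ER chaperone arm rose after CRISPRi, and all of those called after siRNA fell. After CRISPRi in SK-N-AS, 12 of its 16 genes rose and none fell, where 15.2% of all genes tested rose and 15.5% fell. After CRISPRi in SK-N-SH, 9 rose and 4 fell, where 27.7% of all genes rose and 28% fell. After siRNA in SK-N-SH none rose and 9 fell, where 2.55% of all genes rose and 6.98% fell. EDEM1, a lectin that takes misfolded glycoproteins out of folding for ERAD, showed this most plainly, with a log2 fold change of 0.53 ± 0.037 in SK-N-AS CRISPRi, 0.47 ± 0.047 in SK-N-SH CRISPRi and -0.51 ± 0.046 with siRNA (SE). The ATF4 amino acid arm had no common direction, with 4 higher and 4 lower, 6 higher and 4 lower, and 0 higher and 1 lower in the same order of experiments. Its counts in both SK-N-SH experiments were near the shares of all genes. In bulk RNA, fewer cells with high expression and less mRNA per cell cannot be told apart.

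Calls are adjusted p under 0.05 in edgeR's quasi-likelihood test with Benjamini-Hochberg adjustment over all genes tested. In SK-N-AS CRISPRi 25 of the 38 members were called, 20 higher and 5 lower, where 30.6% of all 19277 genes tested were called (15.2% higher and 15.5% lower). In SK-N-SH CRISPRi 27 members were called, 18 higher and 9 lower, where 55.8% of all 15391 genes tested were called (27.7% higher and 28% lower). With siRNA 12 members were called, all lower, where 9.53% of all 21018 genes tested were called (2.55% higher and 6.98% lower), and 19 members, 11 of them in the ER chaperone arm, had an unadjusted p under 0.05. By DESeq2 the calls of DNAJB9, CHAC1 and CEBPG in SK-N-SH CRISPRi were lost, and PPP1R15A was called lower with siRNA. No member rose with siRNA by DESeq2 either, but SHMT2 was called higher without scaling, with upper-quartile factors, without a filter on low counts and without knockdown library 3. Most changes were small: at a fold change of at least 1.5, calls were left for SLC7A5 and SLC7A11 in SK-N-AS CRISPRi, for SLC7A11 and DDIT3 in SK-N-SH CRISPRi, and for no member with siRNA. Counted by libraries, every knockdown library was above every control for 17 members and below for 5 in SK-N-AS CRISPRi, where 29.1% of all genes showed such a gap (14.4% above and 14.6% below). The same counts were 20 and 9 in SK-N-SH CRISPRi, where 60.7% of all genes did (30.2% above and 30.5% below), and 0 and 9 with siRNA, where 8.74% did (2.65% above and 6.08% below). The median log2 fold change of the ER chaperone arm was 0.19, 0.22 and -0.16, beside 0.00, -0.01 and 0.01 over all genes tested. The median of the ATF4 amino acid arm was 0.00, 0.03 and 0.01, and in SK-N-SH CRISPRi it was -0.10 without scaling beyond library totals. Omitting that scaling moved the median of all genes in SK-N-SH CRISPRi to -0.136, and the share of higher genes among all calls was 30.4% so and 49.7% as reported. Without that scaling, calls were lost in SK-N-SH CRISPRi for CHAC1, DNAJB9, PPP1R15A, SESN2, TRIB3 and XBP1, and with siRNA for ATF6, DNAJC3, ERN1, HYOU1 and SLC7A1. With siRNA the share of higher genes among all calls was 26.7% as reported, 55.2% without scaling and 43.3% with upper-quartile factors.

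**Figure D1:**
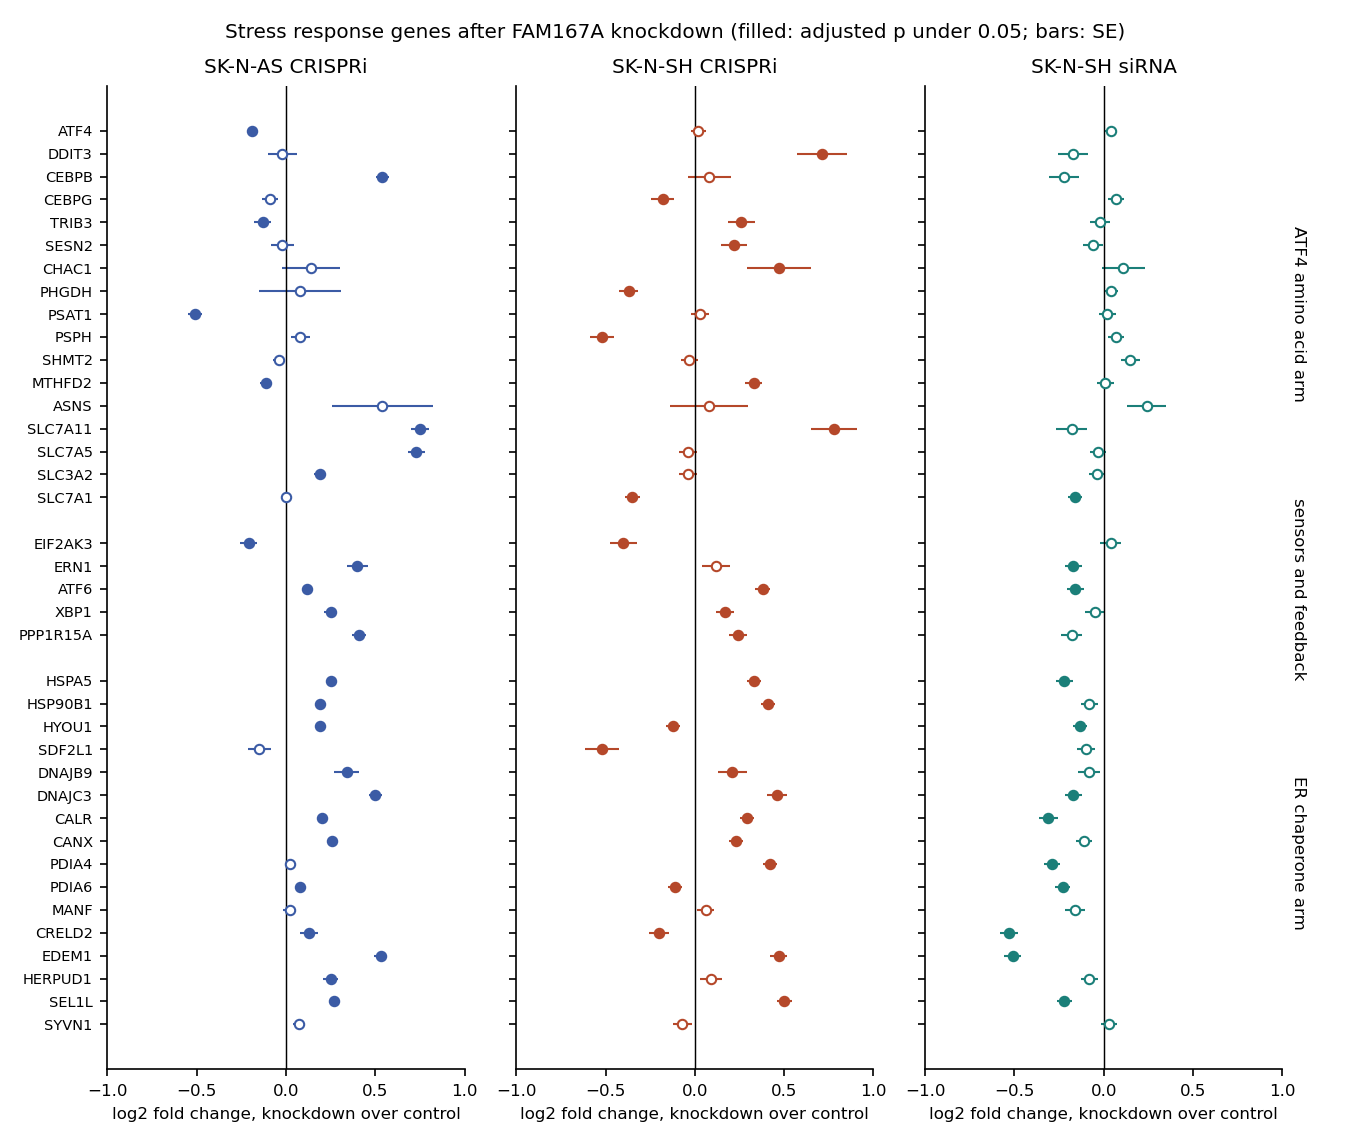
Log2 fold change of each of the 38 genes, knockdown over control, with its SE, in SK-N-AS CRISPRi, SK-N-SH CRISPRi and SK-N-SH siRNA. Filled points passed the test at an adjusted p under 0.05; the ER chaperone arm lies mostly right of 0 in both CRISPRi panels, at medians of 0.19 and 0.22, and mostly left of 0 with siRNA, at -0.16.

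Summed over its 16 genes, the ER chaperone arm took 6057 to 6204 CPM in knockdown libraries of SK-N-AS CRISPRi, against 5327 to 5429 CPM in controls. In SK-N-SH CRISPRi the sums were 5895 to 6035 CPM in knockdown libraries, against 4929.9 to 4975 CPM in controls. Both CRISPRi experiments thus had every knockdown library above every control library. With siRNA the sums were 3814 to 4209.9 CPM in knockdown libraries, against 4333 to 4781 CPM in controls, so the highest knockdown sum was under the lowest control sum. The ATF4 amino acid arm sums were 910.2 to 933 CPM in knockdown and 885 to 899 CPM in control libraries of SK-N-AS CRISPRi, and 873 to 906 CPM in knockdown and 915 to 943 CPM in control libraries of SK-N-SH CRISPRi. These groups did not overlap and went opposite ways. With siRNA they overlapped, at 953 to 1015 CPM in knockdown and 954 to 1019 CPM in control libraries. These sums follow the abundant genes: in SK-N-SH CRISPRi the arm's median log2 fold change was 0.03. There the 4 amino acid transporters, SLC7A1 among them, summed to 281 to 310 CPM in knockdown and 323 to 342 CPM in control libraries. The sum of ATF4 and the other regulators went the other way (247 to 257 and 240 to 246 CPM). The gap was narrow, from 246.2 CPM in the highest control to 246.8 CPM in the lowest knockdown library. ATF4 alone was not called there, and CEBPG was called lower. The sums of the serine, one-carbon and asparagine genes overlapped. HSP90B1, CALR, HSPA5 and CANX took the most reads of the ER chaperone arm, not divided by gene length, and so weigh most in its sum.

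**Figure D2:**
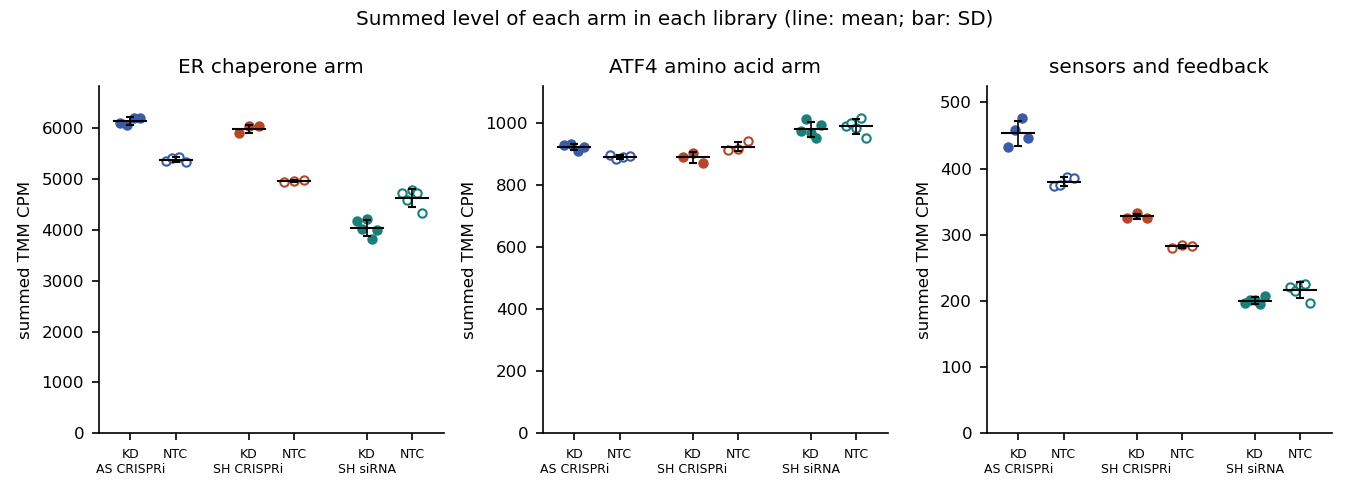
Summed level of each group of genes in each library, in CPM after TMM scaling, with filled circles for knockdown (KD) and open circles for control (NTC) libraries, lines for means and bars for SD. The ER chaperone arm sums of knockdown libraries lie above their controls in both CRISPRi experiments (means 6139 against 5378 CPM and 5986 against 4954 CPM) and below them with siRNA (4038 against 4627 CPM).

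BiP (HSPA5) is the main Hsp70 chaperone of the ER and the standard reporter of the unfolded protein response. In SK-N-AS CRISPRi it stood at 941, 935, 958 and 958 CPM in the knockdown libraries, against 795, 806, 803 and 789 CPM in the control libraries. The groups did not overlap, and HSPA5 rose by 0.25 ± 0.022 on the log2 scale (edgeR adjusted p = 2.7e-11). In SK-N-SH CRISPRi its mean was 797 ± 14.7 CPM in knockdown cells and 635 ± 18.8 CPM in control cells (SD, n = 3 each), again with no overlap, a log2 fold change of 0.33 ± 0.038 (edgeR adjusted p = 2.63e-09). With siRNA its level was 615 ± 29.2 CPM in knockdown cells and 717 ± 35.4 CPM in control cells (SD, n = 5 each), where the highest knockdown library passed the lowest control library, and the log2 fold change was -0.22 ± 0.047 (edgeR adjusted p = 0.00227).

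GRP94 (HSP90B1), the Hsp90 chaperone of the ER, had 1417, 1448 and 1480.5 CPM in the knockdown libraries, against 1042, 1145 and 1075 CPM in the control libraries in SK-N-SH CRISPRi. All 3 knockdown libraries were above all 3 controls, with a log2 fold change of 0.41 ± 0.041 (edgeR adjusted p = 4.64e-11). It rose less in SK-N-AS CRISPRi (0.19 ± 0.024) and was not called with siRNA (-0.08 ± 0.048). DNAJC3, a BiP co-chaperone also known as an inhibitor of PERK, had 71.1, 70.8, 73.4 and 73.7 CPM in the knockdown libraries, against 49.1, 51.1, 52.2 and 52.1 CPM in the control libraries in SK-N-AS CRISPRi. No knockdown library was as low as the highest control, and the log2 fold change was 0.50 ± 0.035 (edgeR adjusted p = 8.81e-14). DNAJC3 rose also in SK-N-SH CRISPRi (0.46 ± 0.056) and fell with siRNA (-0.17 ± 0.046, edgeR adjusted p = 0.0221), although that last call was lost without knockdown library 2 or control library 1, 3 or 4 (adjusted p up to 0.0724). DNAJB9, another BiP co-chaperone, which holds IRE1 in check, rose in SK-N-AS CRISPRi (0.34 ± 0.071) and in SK-N-SH CRISPRi (0.21 ± 0.081) and had -0.08 with siRNA, not called. Its SK-N-SH CRISPRi call was lost without knockdown library 2 or 3 or control library 1 or 3 (adjusted p up to 0.0894). In the siRNA table DNAJB9 overlaps PNPLA8 and THAP5 on the other strand, which held 37744 and 30576 reads against its own 18673, so its counts there are uncertain.

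HYOU1, the nucleotide exchange factor of BiP, went the opposite way in the 2 lines, with 0.19 ± 0.026 in SK-N-AS CRISPRi (edgeR adjusted p = 3.01e-07) and -0.12 ± 0.039 in SK-N-SH CRISPRi (edgeR adjusted p = 0.0104). It fell by 0.13 with siRNA, with an adjusted p of 0.0406. The SK-N-SH CRISPRi call was lost without knockdown library 1 or control library 3 (adjusted p up to 0.11), and the siRNA call was kept only without knockdown library 3 or control library 5 (adjusted p = 0.0195 to 0.13 over 10 fits). SDF2L1, a partner of BiP co-chaperones, fell in SK-N-SH CRISPRi, at 13.1 ± 0.988 CPM in knockdown cells and 19.0 ± 2.53 CPM in control cells (SD, n = 3 each), a log2 fold change of -0.52 ± 0.097 (edgeR adjusted p = 1.76e-05). Its values elsewhere were -0.15 ± 0.065 in SK-N-AS CRISPRi and -0.10 ± 0.05 with siRNA, neither of them called. Of these 6 genes of the BiP system, 5 rose and none fell in SK-N-AS CRISPRi, 4 rose and 2 fell in SK-N-SH CRISPRi, and none rose and 3 fell with siRNA. The shares of all genes called higher and lower were 15.2% and 15.5%, 27.7% and 28%, and 2.55% and 6.98% in that order.

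Calreticulin (CALR) and calnexin (CANX) are lectins that hold new glycoproteins for folding. CALR had 686, 655, 635, 554 and 655 CPM in the knockdown libraries, against 779, 805, 810.4, 825 and 731 CPM in the control libraries with siRNA. All 5 knockdown libraries were below all 5 controls, and knockdown library 4 was the lowest, with a log2 fold change of -0.31 ± 0.053 (edgeR adjusted p = 0.000264). It rose by 0.20 ± 0.021 in SK-N-AS CRISPRi and by 0.29 ± 0.04 in SK-N-SH CRISPRi. CANX had 883, 865, 910.2 and 916 CPM in the knockdown libraries, against 723, 755, 774 and 742 CPM in the control libraries in SK-N-AS CRISPRi. These groups did not overlap either, and CANX rose by 0.26 ± 0.025 (edgeR adjusted p = 2.28e-10), beside 0.23 ± 0.038 in SK-N-SH CRISPRi, also called, and -0.11 ± 0.047 with siRNA, not called.

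The protein disulfide isomerase PDIA4 differed between the lines and between the methods. It had 569.7, 569 and 569.5 CPM in the knockdown libraries, against 436, 402 and 442 CPM in the control libraries in SK-N-SH CRISPRi. The 3 knockdown libraries were nearly equal and above every control, a log2 fold change of 0.42 ± 0.04 (edgeR adjusted p = 1.49e-11). With siRNA PDIA4 had 357, 364, 369, 338 and 370.3 CPM in the knockdown libraries, against 450.3, 434, 449.8, 453 and 407 CPM in the control libraries. There every knockdown library was below every control, a log2 fold change of -0.29 ± 0.043 (edgeR adjusted p = 5.35e-05). In SK-N-AS CRISPRi it was at 504 ± 5.42 CPM in knockdown cells and 496 ± 11.4 CPM in control cells (SD, n = 4 each), and its log2 fold change of 0.02 ± 0.024 was not called. PDIA6, another isomerase and a brake on IRE1 and PERK signalling, rose slightly in SK-N-AS CRISPRi (0.08 ± 0.024) and fell in SK-N-SH CRISPRi (-0.11 ± 0.038) and with siRNA (-0.23 ± 0.042, edgeR adjusted p = 0.000574). Its SK-N-SH CRISPRi call was lost without knockdown library 1 (edgeR adjusted p = 0.101).

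In the ERAD group, EDEM1 (ENSG00000134109, on chromosome 3 from 5187646 to 5219958, plus strand, GRCh38) had 69.6, 70.6, 68.4 and 67.2 CPM in the knockdown libraries, against 46.8, 49.7, 48.8 and 45.7 CPM in the control libraries in SK-N-AS CRISPRi. Every knockdown library was above every control, a fold change of 1.45 (edgeR adjusted p = 3.9e-14). In SK-N-SH CRISPRi EDEM1 had 105, 112 and 104 CPM in the knockdown libraries, against 79.2, 73.6 and 79.2 CPM in the control libraries. The groups stood apart in the same direction, a fold change of 1.38 (edgeR adjusted p = 6.82e-11). With siRNA in the same line it had 78.8, 86.8, 92.8, 90.4 and 81.8 CPM in the knockdown libraries, against 125, 121, 126, 127 and 116 CPM in the control libraries. Here every knockdown library was below every control, and the level in control cells was 1.43 times that in knockdown cells (edgeR adjusted p = 2.9e-08). SEL1L, the adaptor of the ERAD ubiquitin ligase, had 175, 183 and 171 CPM in the knockdown libraries, against 125, 126 and 123 CPM in the control libraries in SK-N-SH CRISPRi. Its groups did not overlap, with a log2 fold change of 0.50 ± 0.042 (edgeR adjusted p = 3.61e-13).

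SEL1L also rose in SK-N-AS CRISPRi (0.27 ± 0.029) and fell with siRNA (-0.22 ± 0.04, edgeR adjusted p = 0.000541). HERPUD1, an ER membrane protein of the same ligase complex, rose in SK-N-AS CRISPRi (0.25 ± 0.041) and was not called in SK-N-SH CRISPRi (0.09 ± 0.061) or with siRNA (-0.08 ± 0.049). SYVN1, the ligase itself, had log2 fold changes of 0.07, -0.07 and 0.03 in the 3 experiments, none called. SYVN1 overlaps FAU and MRPL49, which held 80244 and 38548 reads against its own 45772 in the SK-N-AS table, so its counts are uncertain.

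The remaining 2 genes of the arm encode proteins that leave the ER. CRELD2, which is retained in the ER and partly secreted on ER stress, had 34.8, 35.4, 41.6, 35.4 and 36.0 CPM in the knockdown libraries, against 57.2, 50.1, 53.9, 52.7 and 51.4 CPM in the control libraries with siRNA. All 5 knockdown libraries were below all 5 controls, and knockdown library 3 was the highest of its group, with a log2 fold change of -0.53 ± 0.052 (edgeR adjusted p = 1.33e-07). CRELD2 fell in SK-N-SH CRISPRi too (-0.20 ± 0.055) and rose in SK-N-AS CRISPRi (0.13 ± 0.05, edgeR adjusted p = 0.0456), a call kept only without knockdown library 4 or control library 4 (adjusted p = 0.0139 to 0.17 over 8 fits). It overlaps ALG12 on the other strand, which held 8773 reads against its own 13727 in the SK-N-AS table. MANF, a secreted protein that protects cells under ER stress, had log2 fold changes of 0.02, 0.06 and -0.16 ± 0.054, none called. It and SYVN1 were the 2 genes of the arm called in no experiment as reported. MANF was called lower with siRNA without a filter on low counts, without knockdown library 1 or 5 and without control library 5. SYVN1 was called lower in SK-N-SH CRISPRi without scaling and higher in SK-N-AS CRISPRi without control library 1.

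**Figure D3:**
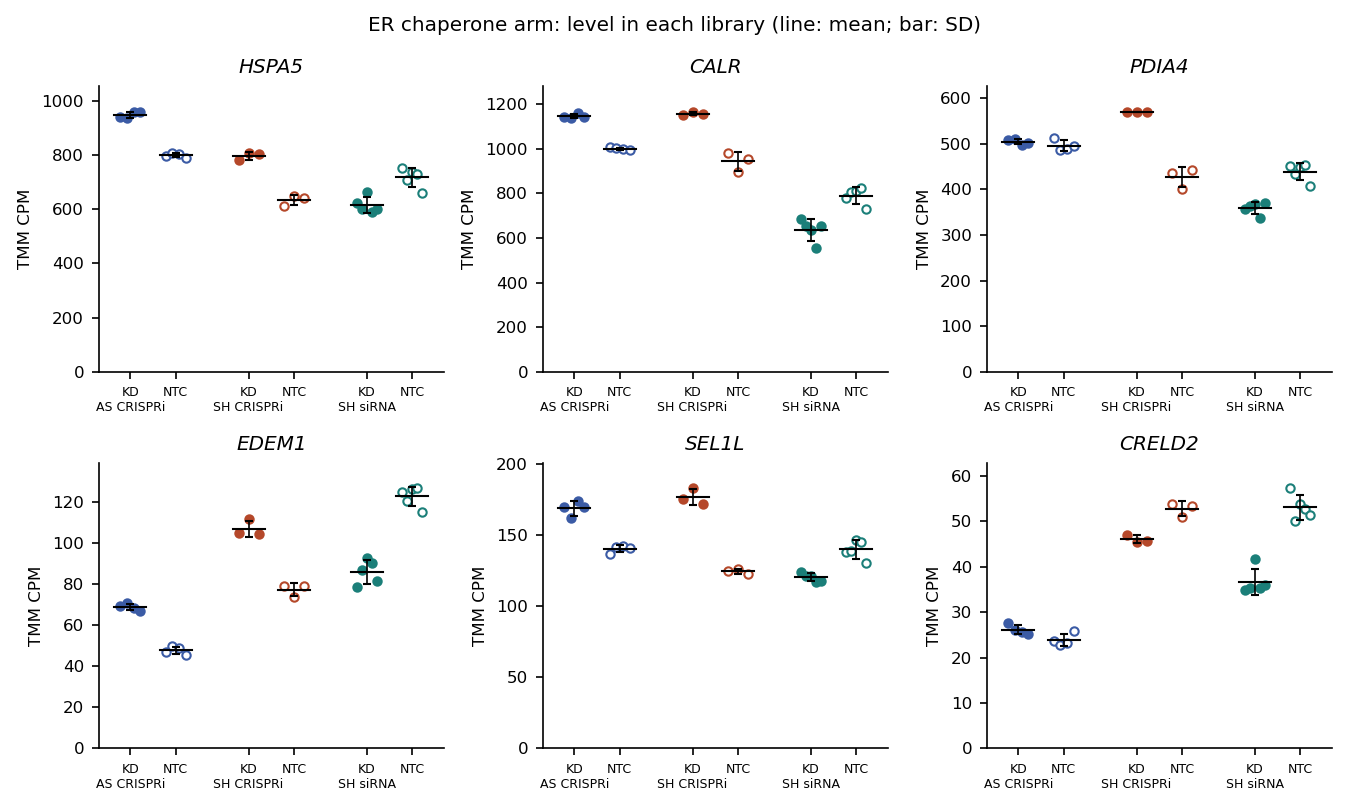
Level of 6 genes of the ER chaperone arm in each library, in CPM after TMM scaling on axes that start at 0, with filled circles for knockdown (KD) and open circles for control (NTC) libraries, lines for means and bars for SD. EDEM1 knockdown libraries lie above their controls in both CRISPRi experiments and below them with siRNA (means 69.0 against 47.8 CPM, 107 against 77.3 CPM and 86.1 against 123 CPM), while PDIA4 in SK-N-AS (504 against 496 CPM) overlaps.

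Some promoters of these genes hold letters of the elements through which ATF6, XBP1 and ATF4 are known to act, and 4 are shown for called members that hold one. Windows of 300 bases, 250 before to 50 after the RefSeq start in GRCh38.p14, were found for 35 of the 38 genes. The ER stress response element, CCAAT and CCACG with 9 bases between them, searched on both strands, was in 5 of 16 windows of the ER chaperone arm (31.2%), in 1 of 5 of the sensors and in none of 14 of the ATF4 arm, beside 22 of 27305 windows in all (0.0806%). Its holders were HSPA5, HSP90B1 (with 2 matches), CALR, CANX, CRELD2 and XBP1. The shorter form, ATTGG and CCACG with 1 base between them, was in HYOU1, SDF2L1 and HERPUD1 (18.8% of the arm, beside 0.0549% of all windows). The amino acid response element TGATGNAA, which ATF4 binds with C/EBP partners, was in 4 of 14 windows of the ATF4 arm (28.6%, beside 3.67% of all), those of CHAC1, ASNS, SLC3A2 and SLC7A1, and in HERPUD1. TGACGTGG, an XBP1 site core, was in HYOU1 (beside 0.795% of all). Capitals mark the fixed letters of each match, as they stand in the strand printed.
HSPA5, chr9:125241294-125241593, minus strand: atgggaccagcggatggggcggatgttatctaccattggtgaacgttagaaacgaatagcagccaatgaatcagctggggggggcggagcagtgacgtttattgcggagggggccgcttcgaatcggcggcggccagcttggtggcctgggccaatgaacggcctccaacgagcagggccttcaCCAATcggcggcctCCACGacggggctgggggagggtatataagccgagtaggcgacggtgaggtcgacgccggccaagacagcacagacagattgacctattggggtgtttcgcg
HSP90B1, chr12:103930160-103930459, plus strand: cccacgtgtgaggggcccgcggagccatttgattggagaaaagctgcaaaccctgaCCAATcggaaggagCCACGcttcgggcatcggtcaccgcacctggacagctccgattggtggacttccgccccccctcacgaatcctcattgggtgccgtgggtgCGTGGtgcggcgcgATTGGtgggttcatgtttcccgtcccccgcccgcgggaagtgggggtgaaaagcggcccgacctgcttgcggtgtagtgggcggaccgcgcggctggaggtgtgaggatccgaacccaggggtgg
XBP1, chr22:28800520-28800819, minus strand: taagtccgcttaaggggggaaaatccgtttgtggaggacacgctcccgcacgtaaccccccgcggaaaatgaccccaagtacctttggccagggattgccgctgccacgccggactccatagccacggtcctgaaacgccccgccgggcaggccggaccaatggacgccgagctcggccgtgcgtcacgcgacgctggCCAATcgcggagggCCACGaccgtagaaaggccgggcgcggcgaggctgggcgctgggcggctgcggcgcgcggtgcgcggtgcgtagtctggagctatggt
SLC7A1, chr13:29595639-29595938, minus strand: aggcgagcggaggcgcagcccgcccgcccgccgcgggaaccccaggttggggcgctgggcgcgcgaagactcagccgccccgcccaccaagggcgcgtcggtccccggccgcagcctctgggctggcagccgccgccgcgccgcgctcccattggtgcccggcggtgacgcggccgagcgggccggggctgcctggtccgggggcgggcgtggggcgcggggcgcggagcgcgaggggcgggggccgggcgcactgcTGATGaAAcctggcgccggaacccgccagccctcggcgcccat
The second match of HSP90B1 lies on the other strand and so reads from its reverse complement. Of the 6 holders of the long form, CALR, CANX, HSPA5, HSP90B1 and XBP1 rose in both CRISPRi experiments. Of all 13943 genes tested in all 3 experiments, 9.84% did. CRELD2 fell in SK-N-SH CRISPRi, and its rise in SK-N-AS CRISPRi was lost in 6 of 8 fits that left out 1 library. With siRNA CALR (-0.31), HSPA5 (-0.22) and CRELD2 (-0.53) fell, and CANX (-0.11), HSP90B1 (-0.08) and XBP1 (-0.05) were not called. Of the holders of the shorter form, HYOU1 rose in SK-N-AS CRISPRi and fell in SK-N-SH CRISPRi. SDF2L1 fell in SK-N-SH CRISPRi and HERPUD1 rose in SK-N-AS CRISPRi, neither called in the other line. DNAJB9, DNAJC3, EDEM1 and SEL1L rose in both CRISPRi experiments and held none of these elements. Any link between the elements and the changes was not tested.

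Of the sensors, ATF6 and ERN1 rose in SK-N-AS CRISPRi while EIF2AK3 fell, so mRNAs of the 3 sensors did not move together. EIF2AK3, which encodes the eIF2 kinase PERK, had 22.8, 24.2 and 20.4 CPM in the knockdown libraries, against 29.9, 30.9 and 28.4 CPM in the control libraries in SK-N-SH CRISPRi. All 3 knockdown libraries were below all controls, a log2 fold change of -0.40 ± 0.075 (edgeR adjusted p = 2.16e-05). In SK-N-AS CRISPRi it had 21.6, 22.1, 23.1 and 22.5 CPM in the knockdown libraries, against 25.4, 24.7, 26.5 and 26.6 CPM in the control libraries. Those groups did not overlap either, with -0.21 ± 0.048 (edgeR adjusted p = 0.000636), and EIF2AK3 was the 1 member of the 38 that fell in both CRISPRi experiments, where 10.5% of the 13943 genes tested in all 3 did. With siRNA its value was 0.04 ± 0.059, not called.

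ERN1, the IRE1 sensor that splices XBP1 mRNA, had 18.7, 20.4, 22.02 and 19.9 CPM in the knockdown libraries, against 16.0, 13.7, 15.6 and 15.5 CPM in the control libraries in SK-N-AS CRISPRi. Each knockdown library exceeded each control, a log2 fold change of 0.40 ± 0.059 (edgeR adjusted p = 1.28e-06). With siRNA ERN1 had 23.7, 23.2, 25.5, 25.5 and 25.6 CPM in the knockdown libraries, against 27.7, 27.0, 28.6, 27.2 and 28.1 CPM in the control libraries. The groups were apart in the other direction, with -0.17 ± 0.049 (edgeR adjusted p = 0.0323), a call lost without knockdown library 1 or 2 or any of control libraries 1 to 4 (adjusted p up to 0.086). In SK-N-SH CRISPRi it had 0.12 ± 0.079, not called.

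The transmembrane transcription factor ATF6 had 136, 142 and 132 CPM in the knockdown libraries, against 105, 105 and 106 CPM in the control libraries in SK-N-SH CRISPRi. Knockdown libraries were all above the controls, which were nearly equal, a log2 fold change of 0.38 ± 0.043 (edgeR adjusted p = 1.35e-09). With siRNA ATF6 had 68.5, 75.7, 66.8, 65.9 and 75.1 CPM in the knockdown libraries, against 76.7, 79.02, 80.3, 84.5 and 73.3 CPM in the control libraries. The groups overlapped, and its log2 fold change of -0.16 ± 0.048 (edgeR adjusted p = 0.0344) was a call kept only without knockdown library 2 or 5 or control library 5 (adjusted p = 0.00975 to 0.134 over 10 fits). In SK-N-AS CRISPRi it rose by 0.12 ± 0.032, with overlapping groups.

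XBP1, whose spliced form is a transcription factor of ER genes, had 87.0, 85.6, 86.3 and 86.7 CPM in the knockdown libraries, against 73.8, 66.1, 76.6 and 73.3 CPM in the control libraries in SK-N-AS CRISPRi. The knockdown libraries lay close together above all controls, a log2 fold change of 0.25 ± 0.036 (edgeR adjusted p = 1.04e-06). In SK-N-SH CRISPRi it had 74.3, 75.8 and 75.6 CPM in the knockdown libraries, against 62.9, 68.5 and 68.6 CPM in the control libraries. These too did not overlap, with 0.17 ± 0.05 (edgeR adjusted p = 0.00378), a call lost without scaling beyond library totals. The counts do not separate spliced from unspliced XBP1, and with siRNA its value was -0.05 ± 0.052, not called.

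PPP1R15A (GADD34), the phosphatase subunit that reverses eIF2 phosphorylation, had 174, 194, 202 and 178 CPM in the knockdown libraries, against 135, 139, 140.4 and 149 CPM in the control libraries in SK-N-AS CRISPRi. Every knockdown library was above every control, a log2 fold change of 0.41 ± 0.038 (edgeR adjusted p = 1.9e-09). In SK-N-SH CRISPRi it had 71.9, 68.6 and 76.1 CPM in the knockdown libraries, against 62.0, 61.6 and 60.3 CPM in the control libraries. Again there was no overlap, with 0.24 ± 0.051 (edgeR adjusted p = 0.000138), also lost without scaling beyond totals. With siRNA its value of -0.18 ± 0.058 was just outside the threshold (edgeR adjusted p = 0.0524), and it was called lower by DESeq2, with a filter at 1 CPM, with no filter, and without knockdown library 3 or control library 5.

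In the ATF4 arm, ATF4 itself fell in SK-N-AS CRISPRi, and its partners and targets split. ATF4, the transcription factor at the head of the arm, was at 179.5 ± 1.03 CPM in knockdown cells and 205 ± 2.94 CPM in control cells (SD, n = 4 each) in SK-N-AS CRISPRi, a log2 fold change of -0.19 ± 0.026 (edgeR adjusted p = 3.43e-07). In SK-N-SH it stood at 0.02 ± 0.043 with CRISPRi and 0.04 ± 0.036 with siRNA, neither called, although without scaling it was called lower in SK-N-SH CRISPRi. CEBPB, a C/EBP transcription factor that pairs with ATF4, had 110.4, 116, 103 and 109 CPM in the knockdown libraries, against 73.2, 71.9, 74.6 and 81.1 CPM in the control libraries in SK-N-AS CRISPRi. The groups were far apart, a log2 fold change of 0.54 ± 0.037 (edgeR adjusted p = 3.75e-14). In SK-N-SH, where its control means were 8.87 and 9.43 CPM, CEBPB had 0.08 ± 0.12 with CRISPRi and -0.22 ± 0.084 with siRNA, not called. CEBPG, another partner, fell in SK-N-SH CRISPRi (-0.18 ± 0.065, edgeR adjusted p = 0.0162), a call lost without knockdown library 3 (edgeR adjusted p = 0.133), and had -0.09 and 0.07 in SK-N-AS CRISPRi and with siRNA.

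DDIT3 (CHOP), the transcription factor linked to cell death in prolonged stress, rose in SK-N-SH CRISPRi at 8.76 ± 1.51 CPM in knockdown cells and 5.27 ± 0.478 CPM in control cells (SD, n = 3 each), a log2 fold change of 0.71 ± 0.14 (edgeR adjusted p = 3.36e-05). It had -0.02 ± 0.08 in SK-N-AS CRISPRi and -0.17 ± 0.085 with siRNA, not called. DDIT3 overlaps MARS1 and MBD6 on the other strand, which held 19507 and 5353 reads against its own 668 in the SK-N-SH CRISPRi table, so its counts are uncertain. TRIB3, a pseudokinase that restrains ATF4, rose in SK-N-SH CRISPRi (0.26 ± 0.076) and fell in SK-N-AS CRISPRi (-0.13 ± 0.047, edgeR adjusted p = 0.031), a call lost without knockdown library 2, 3 or 4 or control library 1 or 4 (adjusted p up to 0.161). With siRNA TRIB3 had -0.02. SESN2, a leucine sensor that restrains mTORC1, rose in SK-N-SH CRISPRi (0.22 ± 0.072) and had -0.02 and -0.06 in SK-N-AS CRISPRi and with siRNA. CHAC1, which breaks down glutathione, rose in SK-N-SH CRISPRi (0.47 ± 0.18, edgeR adjusted p = 0.0277) at low levels, at 3.91 ± 0.445 CPM in knockdown cells and 2.84 ± 0.352 CPM in control cells (SD, n = 3 each), a call lost without knockdown library 2 or 3 or control library 3 (adjusted p up to 0.142). It had 0.14 and 0.11 elsewhere, not called.

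The serine and one-carbon genes moved apart by line and by step. PHGDH makes the first step of serine synthesis, PSAT1 the second and PSPH the last. PSPH had 23.2, 23.6 and 23.1 CPM in the knockdown libraries, against 33.0, 33.6 and 33.6 CPM in the control libraries in SK-N-SH CRISPRi. Both groups were tight and did not overlap, a log2 fold change of -0.52 ± 0.069 (edgeR adjusted p = 3.23e-08). PHGDH had 63.9, 65.1 and 60.4 CPM in the knockdown libraries, against 80.6, 76.6 and 85.9 CPM in the control libraries there. It too was lower in every knockdown library, with -0.37 ± 0.052 (edgeR adjusted p = 1.37e-07). PSAT1, in contrast, had 0.03 ± 0.05 in SK-N-SH CRISPRi, not called. The PSPH pseudogene PSPHP1 held 273 reads against 2737 of PSPH in that table, and the split of reads between them is uncertain.

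In SK-N-AS CRISPRi PSAT1 was the serine gene that fell. It had 37.5, 37.8, 36.8 and 37.7 CPM in the knockdown libraries, against 52.7, 53.7, 54.5 and 51.9 CPM in the control libraries. The knockdown libraries were all below the controls, a log2 fold change of -0.51 ± 0.038 (edgeR adjusted p = 3.17e-13). PSPH had 0.08 ± 0.054 there and was not called. PHGDH was near absent in that line, at 0.82 ± 0.105 CPM in knockdown cells and 0.782 ± 0.156 CPM in control cells (SD, n = 4 each), against control means of 81.0 and 93.5 CPM in SK-N-SH, from tables normalised apart and so not tested. Its value of 0.08 ± 0.23 in SK-N-AS CRISPRi was not called. None of the serine genes was called with siRNA, where PHGDH, PSAT1 and PSPH had 0.04, 0.02 and 0.07.

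MTHFD2, a mitochondrial folate enzyme, had 89.1, 95.6 and 90.4 CPM in the knockdown libraries, against 70.7, 73.0 and 75.0 CPM in the control libraries in SK-N-SH CRISPRi. Each knockdown library was above each control, a log2 fold change of 0.33 ± 0.048 (edgeR adjusted p = 2.49e-07). It fell in SK-N-AS CRISPRi (-0.11 ± 0.033, edgeR adjusted p = 0.00943), a call lost without knockdown library 2 (edgeR adjusted p = 0.0509), and had 0.01 with siRNA. SHMT2, which feeds serine into mitochondrial folate, had -0.04, -0.03 and 0.15 ± 0.053 in the 3 experiments, not called. ASNS, asparagine synthetase, had 0.54 ± 0.28, 0.08 ± 0.22 and 0.24 ± 0.11, not called. ASNS shares its strand and place with ENSG00000284707, which held 710 reads against 352 of ASNS in the SK-N-AS table, and its low counts are uncertain.

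Of the 4 amino acid transporter genes, SLC7A11 and SLC7A5 had the largest fold changes of the arm in SK-N-AS CRISPRi and SLC7A11 in SK-N-SH CRISPRi, while SLC3A2 and SLC7A1 moved less. SLC7A11, the cystine importer that supplies glutathione synthesis (ENSG00000151012, on chromosome 4 from 138164097 to 138242349, minus strand, GRCh38), had 57.7, 53.7, 58.4 and 59.6 CPM in the knockdown libraries, against 29.5, 35.8, 36.2 and 35.1 CPM in the control libraries in SK-N-AS CRISPRi. The knockdown libraries were all above the controls, of which library 1 was the lowest, with a log2 fold change of 0.75 ± 0.05 (edgeR adjusted p = 2.19e-13). In SK-N-SH CRISPRi it was lower in level, at 15.5 ± 2.3 CPM in knockdown cells and 8.71 ± 1.8 CPM in control cells (SD, n = 3 each), and rose by 0.78 ± 0.13 (edgeR adjusted p = 9e-06). With siRNA its value was -0.18 ± 0.085, not called. SLC7A11 was thus the 1 gene of the ATF4 arm that rose in both CRISPRi experiments.

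SLC7A5 (LAT1), the importer of leucine and other large neutral amino acids, rose in SK-N-AS CRISPRi. There it had 32.7, 34.9, 32.9 and 30.9 CPM in the knockdown libraries, against 20.1, 19.8, 19.5 and 19.7 CPM in the control libraries. The control libraries were nearly equal and all below the knockdown libraries, a log2 fold change of 0.73 ± 0.048 (edgeR adjusted p = 9.95e-15). In SK-N-SH it had -0.04 ± 0.05 with CRISPRi, called lower without scaling, and -0.03 ± 0.044 with siRNA. SLC3A2 (CD98), the heavy chain that carries SLC7A5 and SLC7A11 to the membrane, rose in SK-N-AS CRISPRi (0.19 ± 0.031, edgeR adjusted p = 7.62e-06) and had -0.04 and -0.04 in SK-N-SH. In the SK-N-AS table SLC3A2 overlaps SNHG1 on the other strand, with 42544 reads against its own 51715.

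SLC7A1 (CAT1), the importer of arginine and lysine, was the 1 gene of the ATF4 arm called with siRNA. It had 198, 214, 203, 199.7 and 192 CPM in the knockdown libraries, against 223, 227, 221, 232 and 225 CPM in the control libraries. Every knockdown library was below every control, a log2 fold change of -0.16 ± 0.038 (edgeR adjusted p = 0.00641). In SK-N-SH CRISPRi it had 145, 149 and 134 CPM in the knockdown libraries, against 176, 183 and 185 CPM in the control libraries. The direction was the same and the groups did not overlap, with -0.35 ± 0.043 (edgeR adjusted p = 1.15e-08). In SK-N-AS CRISPRi SLC7A1 had 0.00 ± 0.028, not called. Without control library 5, or without knockdown library 4 and control library 5, CEBPB and SLC7A11 joined SLC7A1 among the genes of the arm that fell with siRNA, so the count was 3 in place of 1.

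**Figure D4:**
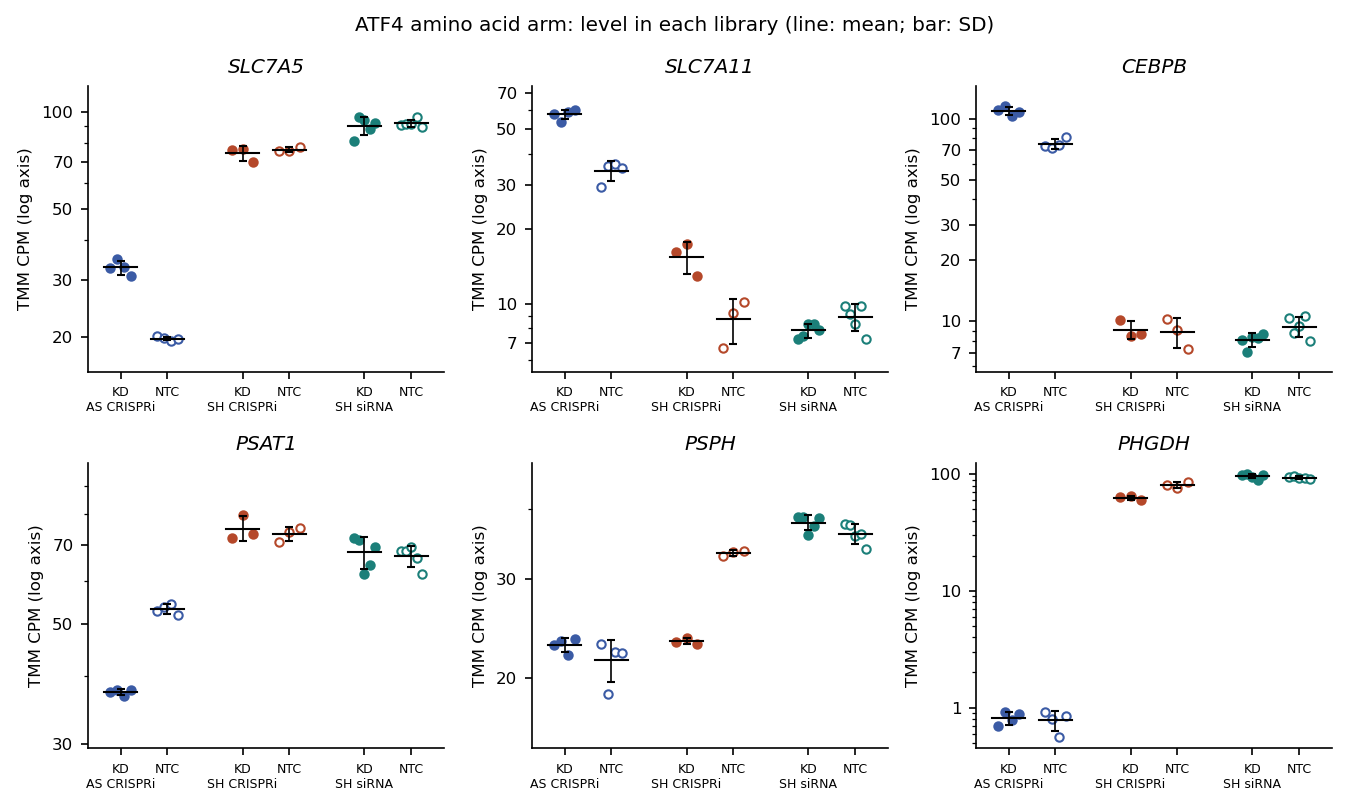
Level of 6 genes of the ATF4 amino acid arm in each library, in CPM after TMM scaling on log axes, with filled circles for knockdown (KD) and open circles for control (NTC) libraries, lines for means and bars for SD. SLC7A5, SLC7A11 and CEBPB knockdown libraries lie above their controls in SK-N-AS CRISPRi (means 32.8 against 19.8, 57.3 against 34.2 and 109.6 against 75.2 CPM), and PHGDH lies near 0.8 CPM in that line.

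Across the 13943 genes tested in all 3 experiments, 12 of the 38 members rose in both CRISPRi experiments, where 9.84% of all genes did. They were ATF6, CALR, CANX, DNAJB9, DNAJC3, EDEM1, HSP90B1, HSPA5, PPP1R15A, SEL1L, SLC7A11 and XBP1, of which 8 belong to the ER chaperone arm. Of these, ATF6, CALR, DNAJC3, EDEM1, HSPA5 and SEL1L also fell with siRNA, 6 of 38 where 3.22% of all genes showed that pattern. CRELD2, HYOU1, MTHFD2, PDIA6 and TRIB3 were called in opposite directions in the 2 CRISPRi lines, 5 of 38 where 5.77% of all genes were. ATF6, CALR, CRELD2, DNAJC3, EDEM1, HSPA5, HYOU1, PDIA6 and SEL1L were called in all 3 experiments, 9 of 38 where 5.71% of all genes were. No member was called in one direction in all 3 experiments, beside 0.789% of all genes, and ASNS, MANF, SHMT2 and SYVN1 were called in none, beside 31.4%. Across the 16 genes of the ER chaperone arm, log2 fold changes in SK-N-AS and SK-N-SH CRISPRi had a Pearson r of 0.68 and a Spearman rho of 0.62, beside 0.28 and 0.33 across all 13943 genes. Across the 17 genes of the ATF4 arm r was 0.19 and rho was 0.02. Between siRNA and SK-N-SH CRISPRi, r was -0.17 in the ER chaperone arm and -0.22 across all genes. Between siRNA and SK-N-AS CRISPRi, r was -0.25 in that arm and -0.12 across all genes. These describe genes of the same libraries, which are not independent of one another.

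Whether the response itself differed was tested as an interaction between experiments, each knockdown against its own controls. Between the CRISPRi lines, 22 of 38 members differed, 11 in each direction, where 30.7% of 19862 genes did (14.7% higher and 16% lower). The 3 with the smallest p were SLC7A5, PDIA4 and PSAT1. SLC7A5 responded more in SK-N-AS by 0.76 ± 0.07 (edgeR adjusted p = 1.51e-12). PDIA4 and PSAT1 had differences of -0.41 ± 0.045 and -0.55 ± 0.063, SK-N-AS minus SK-N-SH (edgeR adjusted p = 3.17e-10 and 8.51e-10). In the ER chaperone arm 4 differences were positive and 4 negative. The sign gives direction and not size: of the positive ones, SDF2L1, CRELD2 and PDIA6 had the log2 fold change farther from 0 in SK-N-SH and HYOU1 in SK-N-AS. In the ATF4 arm 6 were positive and 6 negative. The CRISPRi experiments also differ in depth of FAM167A knockdown (log2 fold change -3.22 in SK-N-AS and -6.23 in SK-N-SH) and in read depth. These cannot be told apart from the line here.

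Between the methods in SK-N-SH, 23 of 38 members differed, 17 with the higher value under CRISPRi and 6 with the lower. Of all 23287 genes 31.4% did (15.1% higher and 16.4% lower). EDEM1, SEL1L and PDIA4 had the smallest p, with differences of 0.97 ± 0.074, 0.71 ± 0.064 and 0.69 ± 0.068, CRISPRi minus siRNA (edgeR adjusted p = 6.61e-13, 3.79e-11 and 2.55e-10). Of the 16 genes of the ER chaperone arm 9 were higher and 1, SDF2L1, was lower, and the median difference was 0.33, beside -0.06 over all genes. Of the 17 genes of the ATF4 arm 5 were higher and 4 lower. The 2 experiments also differ in depth of FAM167A knockdown, in library preparation and in read depth, which cannot be told apart from the method here.

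**Figure D5:**
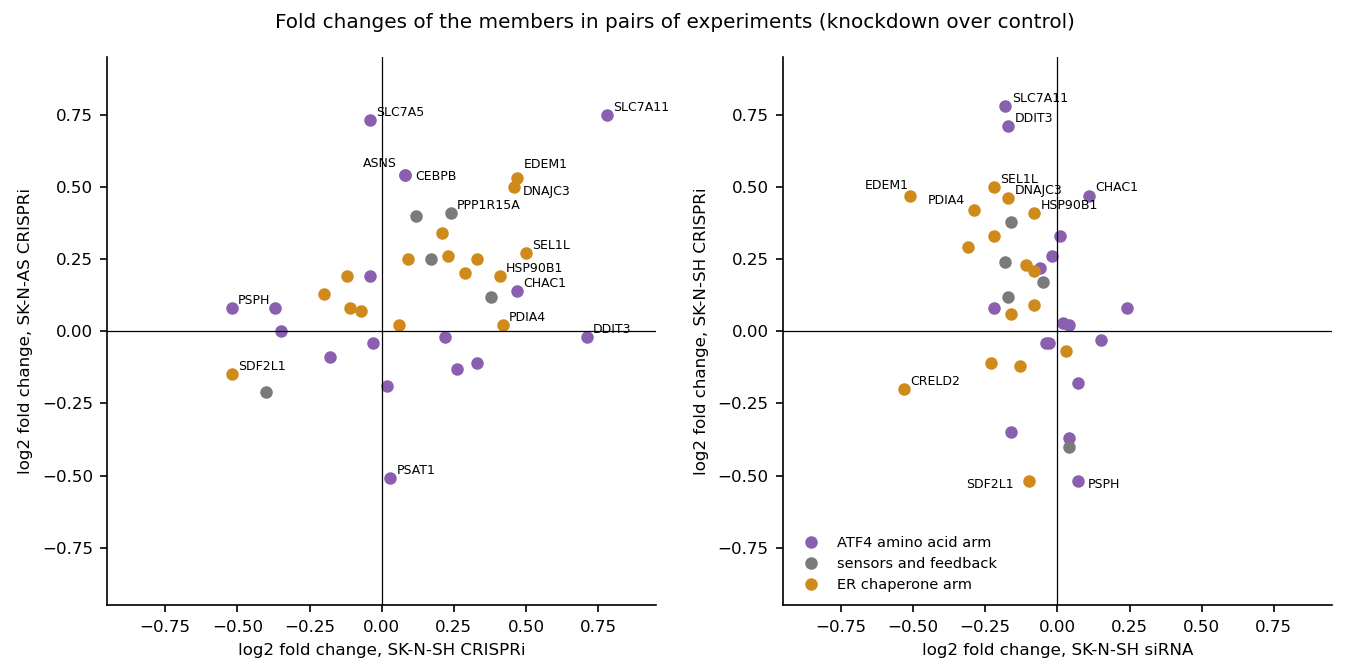
Log2 fold change of each of the 38 genes, knockdown over control, in SK-N-AS CRISPRi against SK-N-SH CRISPRi (left) and in SK-N-SH CRISPRi against SK-N-SH siRNA (right), coloured by group. Most ER chaperone arm genes lie at positive values of both axes on the left, and on the right most lie at positive CRISPRi and negative siRNA values, with EDEM1 at 0.47 and -0.51.

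Other genes of the pathways, from lists drawn up with the members' results known, are given as counts, to be read against the shares of all genes called higher and lower, which were 15.2% and 15.5% in SK-N-AS CRISPRi, 27.7% and 28% in SK-N-SH CRISPRi and 2.55% and 6.98% with siRNA. Counts near these shares, as for the ATF4 targets in SK-N-SH CRISPRi, say nothing particular of a list. Of 15 other ER folding genes, 9 rose and none fell in SK-N-AS CRISPRi, 13 rose and none fell in SK-N-SH CRISPRi, and none rose and 4 fell with siRNA. Among them, the isomerase gene P4HB (0.23) and the reductase gene DNAJC10 (0.29) rose in SK-N-AS CRISPRi, the isomerase gene PDIA3 (0.47) rose in SK-N-SH CRISPRi, and the calcium-binding CALU had 0.53 in SK-N-SH CRISPRi and -0.26 with siRNA. The prolyl isomerase gene PPIB also fell with siRNA (-0.26). Of 18 other ERAD and translocon genes, 9 rose and none fell, 12 rose and none fell, and none rose and 3 fell, in the same order. EDEM3, a mannosidase of the EDEM1 family, had 0.27, 0.79 and -0.19. The lectin gene OS9 had 0.40 in SK-N-SH CRISPRi, SSR1 of the translocon had 0.21 in SK-N-AS CRISPRi, and the channel gene SEC61A1 had -0.35 with siRNA.

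Of 7 other sensor and protease genes, 3 rose and 1 fell in SK-N-AS CRISPRi, all 7 rose in SK-N-SH CRISPRi and 2 fell with siRNA. MBTPS1 and MBTPS2 encode the proteases that cut ATF6. MBTPS2 had 0.14 in SK-N-AS CRISPRi and 0.46 in SK-N-SH CRISPRi, and MBTPS1 had 0.12 in SK-N-AS CRISPRi and -0.17 with siRNA. The ATF6-like factors CREB3L1 (0.70, SK-N-SH CRISPRi), CREB3L2 (-0.08, SK-N-AS CRISPRi) and ATF6B (-0.34, siRNA) were called as well. Of 12 eIF2 kinase, phosphatase and eIF2B genes, 2 rose and 2 fell, 3 rose and 6 fell, and none was called with siRNA. With siRNA 5 of them had an unadjusted p under 0.05 by edgeR. EIF2AK1, the haem-regulated eIF2 kinase, fell in SK-N-AS CRISPRi (-0.14) and in SK-N-SH CRISPRi (-0.21), while EIF2AK4, the amino acid sensor GCN2, rose in the SK-N-SH one (0.29). The subunit genes EIF2S2 (0.26) and EIF2B4 (-0.24) were called in SK-N-SH CRISPRi, and EIF2S3 (0.07), EIF2B2 (-0.17) and the phosphatase subunit gene PPP1R15B (0.11) in SK-N-AS CRISPRi.

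Other ATF4 targets were called in both directions. Of 17 tested in each CRISPRi experiment, 5 rose and 5 fell in SK-N-AS, and 5 rose and 6 fell in SK-N-SH. With siRNA 1 of 18, NUPR1, fell and none rose. Its log2 fold change of -1.59 ± 0.48 had a wide SE (edgeR adjusted p = 0.039). STC2, a secreted glycoprotein induced by ER stress, had 1.07 ± 0.032 in SK-N-AS CRISPRi (edgeR adjusted p = 5.78e-24), and the glutamine transporter SLC38A2 rose in both (0.46 and 0.54). GPT2 (-0.18) and the proline synthesis gene PYCR1 (-0.14) fell in SK-N-AS CRISPRi. In SK-N-SH CRISPRi the glycine transporter SLC6A9 rose (0.84), and VLDLR (-1.09) and the glutamine transporter SLC1A5 (-0.31) fell. Of 12 cytosolic tRNA synthetases, known targets of ATF4, 1 rose and 5 fell in SK-N-AS CRISPRi, 5 rose and none fell in SK-N-SH CRISPRi, and 1 rose and 1 fell with siRNA. NARS1 (0.08), WARS1 (-0.22) and MARS1 (-0.11) were called in SK-N-AS CRISPRi, EPRS1 (0.29) and AARS1 (0.29) in SK-N-SH CRISPRi, and EPRS1 (0.14) and AARS1 (-0.12) with siRNA.

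Levels can be set between genes only per length, which the siRNA table gives. CALR had the highest level per kilobase, at 235 ± 18.4 CPM per kilobase in knockdown cells and 291 ± 13.6 CPM per kilobase in control cells (SD, n = 5 each). HSPA5 stood at 157 ± 7.48 and 184 ± 9.07 CPM per kilobase, and HSP90B1 at 165 ± 8.94 and 175 ± 8.59, so these neighbours in the order do not differ beyond their spread in either group. PDIA4 followed at 109.7 ± 4.08 and 134 ± 5.90 CPM per kilobase, then CANX and PDIA6, and ATF4 was the highest of its arm at rank 7 among the 38. At the low end were CHAC1 (1.73 ± 0.144 and 1.61 ± 0.279 CPM per kilobase), SLC7A11 (0.813 ± 0.0533 and 0.921 ± 0.115) and ASNS (0.696 ± 0.0733 and 0.588 ± 0.0324), where fewer reads leave wider relative error.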

How the data were processed

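RNA was sequenced from SK-N-AS and SK-N-SH cells, and the authors deposited raw read counts per gene in 1 table per experiment. Per the submitters' processing notes, the build was GRCh38 and the tools included featureCounts 1.5.1, STAR 2.6.1d, bcl2fastq 2.20, CASAVA and FastQC 0.11.8. No source used here gives the annotation release or strand setting, so counts of overlapping genes are uncertain. Per the labels' protocols, the CRISPRi libraries came from a stranded kit. Counts were tested in R 4.3.3 with edgeR 4.0.16 (quasi-likelihood test, TMM scaling, limma 3.58.1), within each table, keeping genes by a minimum count of 10 and total of 15, with Benjamini-Hochberg adjustment over all genes tested and a threshold of 0.05. Interactions compared responses between experiments. CPM are TMM-scaled. The scripts were tested on simulated data with 200 changed genes. Alternatives were DESeq2 1.42.0, other scalings and filters, libraries left out, a replicate block and a fold threshold of 1.5. All members are named; library values are given for up to 4 called members per experiment and arm, and 3 per interaction test, with the smallest adjusted p, and up to 2 genes per direction are named from each other list. Same-numbered libraries were not paired by any label. The members and lists were chosen with earlier results of these data known.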

Additional observations from a re-analysis of the deposited data

Results flagged for a closer look

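Responses of the 2 CRISPRi lines differed by the interaction test for 22 members (log2 difference, SK-N-AS minus SK-N-SH). Positive differences were 0.76 for SLC7A5, 0.59 for PSPH, 0.45 for CEBPB, 0.45 for PHGDH, 0.36 for SDF2L1, 0.33 for SLC7A1, 0.31 for CRELD2, 0.30 for HYOU1, 0.26 for ERN1, 0.22 for SLC3A2 and 0.18 for PDIA6. Negative differences were -0.74 for DDIT3, -0.55 for PSAT1, -0.45 for MTHFD2, -0.41 for PDIA4, -0.40 for TRIB3, -0.27 for ATF6, -0.26 for SESN2, -0.25 for SEL1L, -0.24 for HSP90B1, -0.22 for ATF4 and -0.11 for CALR. Leaving out 1 library of 14 in turn lost the call in 10 fits for SESN2, 9 for ERN1, 6 for CALR, 6 for PHGDH and 4 for SDF2L1. PHGDH was near absent in SK-N-AS, with 436 reads over all libraries, so its difference rests on its fall in SK-N-SH CRISPRi.

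In SK-N-SH, responses to CRISPRi and siRNA differed for 23 members (log2 difference, CRISPRi minus siRNA). Positive differences were 0.97 for EDEM1, 0.97 for SLC7A11, 0.88 for DDIT3, 0.71 for SEL1L, 0.69 for PDIA4, 0.62 for DNAJC3, 0.60 for CALR, 0.54 for HSPA5, 0.53 for ATF6, 0.49 for HSP90B1, 0.41 for PPP1R15A, 0.33 for CRELD2, 0.32 for CANX, 0.31 for MTHFD2, 0.28 for ERN1, 0.28 for SESN2 and 0.27 for TRIB3. Negative differences were -0.60 for PSPH, -0.46 for EIF2AK3, -0.44 for SDF2L1, -0.42 for PHGDH, -0.27 for CEBPG and -0.19 for SLC7A1. Leaving out 1 library of 16 in turn lost the call in 7 fits for SLC7A1, 4 for TRIB3 and 1 each for CEBPG, ERN1 and SESN2.

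One library stood far from the others of its group for 9 of 152 sets of values, where chance gives about 1 in 20. Among siRNA knockdown libraries, CEBPG was at 49.4 CPM in library 4 (others 52.4 to 53.2). Library 3 had EIF2AK3 at 20.1 CPM (others 17.8 to 18.1), DNAJC3 at 39.9 CPM (others 35.8 to 36.9) and CRELD2 at 41.6 CPM (others 34.8 to 36.0). Among siRNA controls, SLC7A5 was at 96.1 CPM in library 4 (others 89.8 to 91.6), and library 5 had PDIA6 at 300.0 CPM (others 323 to 331) and MANF at 52.9 CPM (others 57.9 to 59.7). In SK-N-AS CRISPRi, DNAJB9 was at 13.7 CPM in knockdown library 2 (others 16.7 to 17.1), and SLC7A11 was at 29.5 CPM in control library 1 (others 35.1 to 36.2).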

How the results depend on the processing

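Of 538 counts and medians recomputed, 473 stayed close to the reported value and 65 moved, and of 1945 single-gene values 1799 kept their call, 145 lost it and 1 reversed. That 1 was the CALR difference between CRISPRi lines, 0.02 without scaling.

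With siRNA, scaling by totals alone gave 1 member higher (SHMT2, in the ATF4 arm) and 7 lower, with 0 of the ATF4 arm and 0 of the sensors lower, and medians of 0.06 (ATF4 arm) and -0.11 (ER arm). Upper-quartile factors gave 1 higher and 0 sensors lower, and no filter gave 1 higher. Without the libraries apart (knockdown 4 and control 5), 3 genes of the ATF4 arm were lower. Without the 3 libraries low in ribosomal protein genes, chosen after seeing the data, 1 was higher and 3 of the ATF4 arm lower. In SK-N-SH CRISPRi, totals alone gave 14 lower, with 3 higher and 8 lower in the ATF4 arm, 1 sensor higher, and medians of -0.10 (ATF4 arm) and 0.09 (ER arm); no filter gave an ATF4 arm median of 0.05 and 2 of the ER arm lower. In SK-N-AS CRISPRi, no filter gave 1 of the ER arm lower. At 1.5-fold, 2 were higher in each CRISPRi experiment, both in the ATF4 arm, and 0 lower; no gene of the ER arm or sensors was left in any experiment, and 0 with siRNA.

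Leaving out 1 library at a time, members higher and lower numbered 19 to 20 and 3 to 6 in SK-N-AS CRISPRi, 16 to 18 and 7 to 9 in SK-N-SH CRISPRi, and 0 to 1 and 8 to 16 with siRNA. For the ATF4 arm they were 4 to 4 and 2 to 4, 5 to 6 and 3 to 4, and 0 to 1 and 1 to 3, with medians of -0.03 to 0.03, 0.00 to 0.05 and -0.01 to 0.04. For the ER arm they were 11 to 12 and 0 to 1, 8 to 9 and 2 to 4, and 0 to 0 and 7 to 10, with medians of 0.19 to 0.21, 0.20 to 0.24 and -0.19 to -0.14. Sensors lower with siRNA numbered 0 to 3. Differing responses numbered 19 to 22 between lines and 20 to 26 between methods. The cause of these moves was not tested.

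With the replicate number as a block, 0 sensors were lower with siRNA (ATF6 and ERN1 lost their calls), and HYOU1 of the ER arm lost its call there too. In SK-N-AS CRISPRi 1 gene of the ER arm, SDF2L1, was lower. Deviations from the group mean correlated at -0.136 to 0.048 between same-numbered libraries. With so few libraries per group, this cannot show whether they shared a culture or batch, which the labels do not give.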
